A study of Mus musculus with 48 samples.

Results

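The 6 genes described here, Prox1, Lyve1, Mmrn1, Pdpn, Reln and Fgl2, are genes of lymphatic endothelium. They were picked by symbol from a table of 15569 mouse genes, which holds all 6 of them. The rule used no measured value, though the members were chosen with earlier results of these data known. All 6 passed the filter on low counts, which left 15557 genes in the comparison of the sorted fractions.

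RNA was sequenced from sorted endothelial cells of Abcg2CreERT;ROSATdTomato mice, in which Abcg2 drives a tamoxifen-inducible Cre recombinase and Cre switches on the red reporter TdTomato. All mice, in every group, received tamoxifen at 50 mg/kg into the peritoneum 24 h before collection. The sort kept cells with the endothelial protein CD31 and without CD45 and Ter119, proteins of blood cells, and split them by the reporter. The submitters call the TdTomato+ fraction vascular endothelial stem cells and the TdTomato- fraction mature endothelial cells. The comparison of fractions was made in heart at 6 weeks (6W; 5 matched pairs of libraries), lung at postnatal day 1 (P1; 5 pairs), heart at P1 (4 pairs), skeletal muscle at 6W (4 pairs) and muscle at P6 (5 pairs), 46 libraries in all. Another P1 heart pair, number 1, was left out because the labels record that its TdTomato+ library failed quality control. The gate is on CD31, which lymphatic and blood vessel endothelium share, so both can enter both fractions. The driver labels cells in which Abcg2 is active when tamoxifen acts, and a TdTomato- cell may be one that did not recombine. No label tells if a replicate was 1 animal or a pool of pups, so the p-values are about the spread among these libraries, which may be technical.

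Lymphatic vessels return tissue fluid and immune cells to the blood. Their endothelium arises largely from veins, when Sox18 and the nuclear receptor gene Nr2f2 switch on the homeobox gene Prox1, and Prox1 is needed to keep lymphatic identity. Growth of the vessels depends on the ligand Vegfc and its receptor Flt4. In heart, lung and muscle, lymphatic endothelium is a small share of all endothelium next to the dense capillary bed.

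Of the members, Prox1 encodes the transcription factor that specifies the lineage, and cardiomyocytes also express it. Lyve1 encodes a hyaluronan receptor at the surface of lymphatic capillaries, and is found too on some blood vessel endothelium of developing mouse tissues and on tissue macrophages. Pdpn encodes podoplanin, a surface glycoprotein that binds a platelet receptor and is also made by alveolar epithelium, fibroblasts and mesothelium. Mmrn1 encodes multimerin, a soluble protein stored in platelets and endothelium. Reln encodes the secreted glycoprotein reelin, which signals through Vldlr and Lrp8 and the adaptor Dab1. Fgl2 encodes a fibrinogen-like protein with prothrombinase activity, which macrophages also make.

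On the mouse build mm10, the deposited table places Prox1 on chromosome 1 (chr1:190121777-190170680, minus strand), Pdpn on chromosome 4 (chr4:143267409-143299564, minus), Fgl2 (chr5:21372673-21378386, plus) and Reln (chr5:21884454-22344705, minus) on chromosome 5, Mmrn1 on chromosome 6 (chr6:60944317-60989378, plus) and Lyve1 on chromosome 7 (chr7:110850607-110862953, minus). Exons of Prox1 overlap those of the opposite-strand gene Prox1os, and exons of Reln those of Gm10475 (GENCODE annotation). The sources used here do not give the strand setting of the read counting, so reads of the overlaps cannot be assigned. The other 4 members overlap no annotated exon of another gene.

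The libraries held 17512843 to 27622937 counts. Levels are given as counts scaled to a common library size (CPM), scaled between libraries by the trimmed mean of M values, and differences as log2 fold changes with their standard error (SE). A difference was called where edgeR's quasi-likelihood test gave a Benjamini-Hochberg adjusted p below 0.05 over all genes tested. Summed RNA of 8 pan-endothelial markers was 5860 to 15200 CPM in every library, with none of the 8 at 0 in any group. Abcg2 itself averaged 0.27 ± 0.04 (log2, SE) higher in TdTomato+ cells over the 5 combinations (adjusted p = 0.000296), and was called higher singly in P1 lung and P6 muscle. In P1 heart Abcg2 was at 0.03 ± 0.10 (edgeR adjusted p = 0.927).

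By mean CPM, all 6 members were highest in P1 lung and lowest in TdTomato+ cells of P1 heart. Per kilobase of transcript, Lyve1 stood far above the others in lung. It averaged 343 ± 202 CPM per kb in TdTomato+ and 536 ± 250 CPM per kb in TdTomato- lung cells (SD, n = 5 each). Mmrn1 averaged 38.3 ± 12.4 CPM per kb in TdTomato+ and 44.3 ± 15.7 CPM per kb in TdTomato- lung cells. Prox1 averaged 8.13 ± 3.28 CPM per kb in TdTomato+ and 5.72 ± 1.79 CPM per kb in TdTomato- lung cells. The length-scaled level of Lyve1 was thus 42.2 times that of Prox1 in TdTomato+ and 93.8 times in TdTomato- lung cells, while it was 5.47 times in TdTomato+ and 6.32 times in TdTomato- P6 muscle cells. At 6W the ratio was 8.37 in TdTomato+ and 13.2 in TdTomato- heart cells. The 9 macrophage markers summed to 10.5 to 58.3 CPM in TdTomato+ and 20.5 to 59.4 CPM in TdTomato- lung libraries, with Cd163 at 0 in both fractions. In sorted bulk samples, a smaller number of lymphatic cells and less RNA per cell cannot be told apart, here and in every comparison that follows.

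In the order of group means, Lyve1 had a wide step below lung. Its lung libraries ran from 488 to 1782 CPM in TdTomato+ and from 999 to 2554 CPM in TdTomato- cells, and the next group, TdTomato- P6 muscle, ran from 74.9 to 110.0 CPM. Below that followed TdTomato- P1 heart, both 6W muscle fractions, TdTomato+ P6 muscle, both 6W heart fractions and, apart from all others, TdTomato+ P1 heart. Neighbours in this order did not overlap in 3 of 9 steps, and in the orders of the other members in 2 steps for Fgl2 and 1 each for Mmrn1 and Pdpn. For Prox1 and Reln every pair of neighbours overlapped. For Mmrn1, Pdpn, Lyve1 and Fgl2 the lowest step, down to TdTomato+ P1 heart, was one of the separate ones. The share of all genes with such separate steps was not counted. Reln was the lowest member per kilobase in every group but TdTomato- 6W heart, where it averaged 0.918 CPM per kb and Prox1 0.719 CPM per kb. In TdTomato+ P1 heart cells Pdpn had 0.0167 and Reln 0.0140 CPM per kb.

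**Figure D1:**
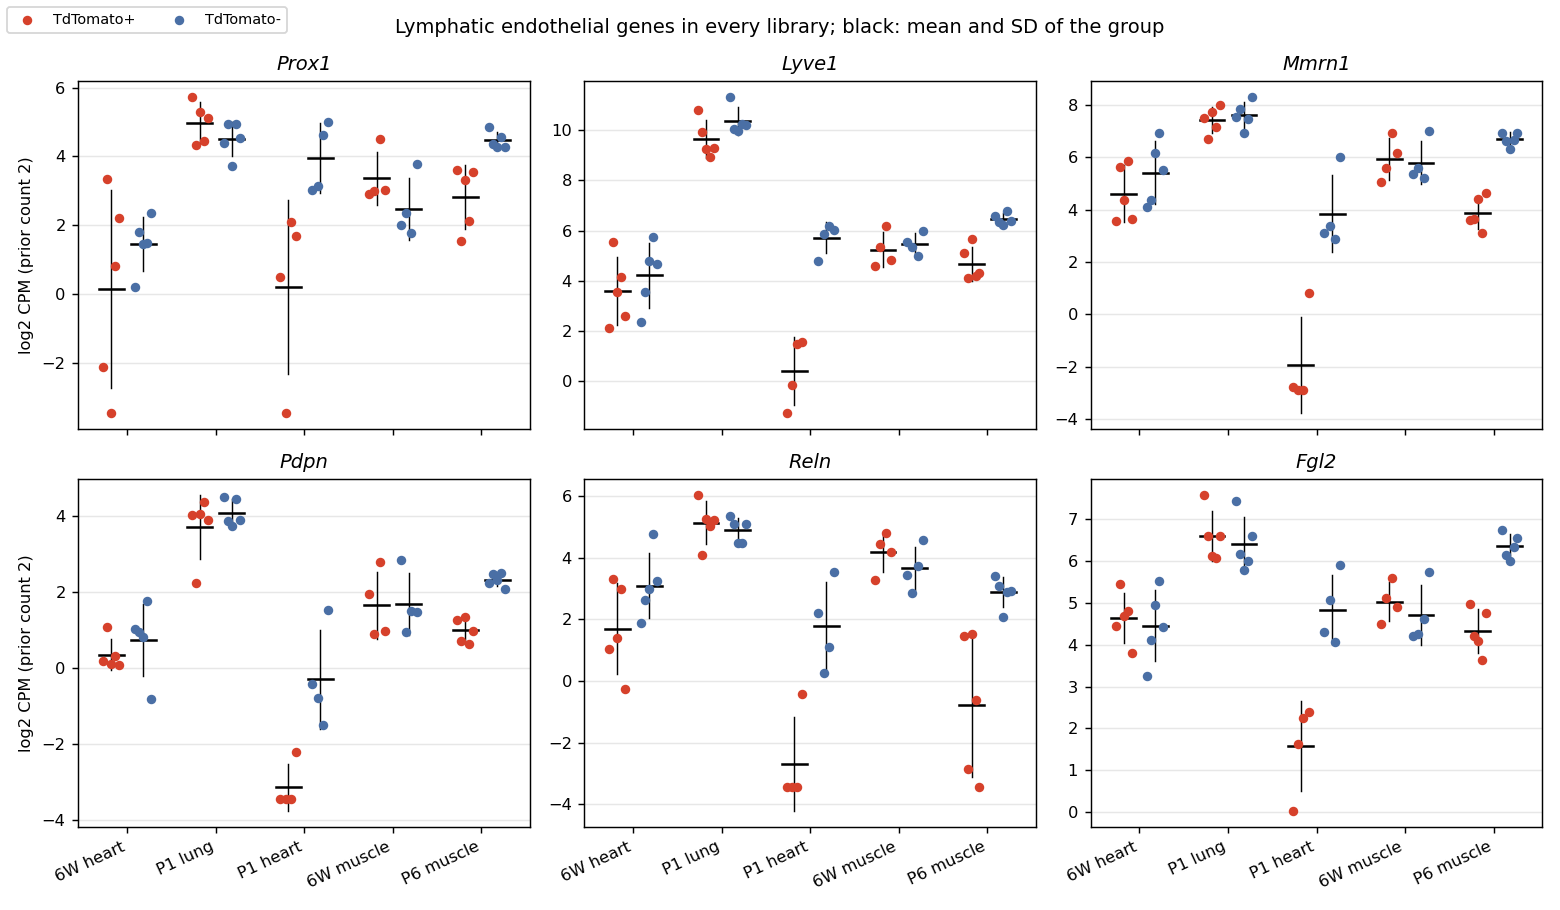
Log2 CPM (prior count of 2) of the 6 members in each of the 46 libraries, by age and tissue, with TdTomato+ libraries in red left of TdTomato- libraries in blue. Black lines are group means and SD; libraries with no count sit at the value set by the prior count. Every member is highest in P1 lung, and the red and blue points separate in P1 heart and P6 muscle only.

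The promoters of Mmrn1, Reln and Fgl2 are shown because these members were called in both P1 heart and P6 muscle and have an entry among the RefSeq promoters (build GRCm38.p6, 250 bases before to 50 after the start, 5′ to 3′ on the gene's strand), where 5 of 6 members had one. Lyve1 is named only. The Mmrn1 stretch is chr6:60944067-60944366 (plus strand), the Reln stretch chr5:22344656-22344955 (minus) and the Fgl2 stretch chr5:21372423-21372722 (plus). Capitals mark the core of ETS-family factors, GGAA or its reverse complement TTCC, a family with members active in all endothelium.
Mmrn1: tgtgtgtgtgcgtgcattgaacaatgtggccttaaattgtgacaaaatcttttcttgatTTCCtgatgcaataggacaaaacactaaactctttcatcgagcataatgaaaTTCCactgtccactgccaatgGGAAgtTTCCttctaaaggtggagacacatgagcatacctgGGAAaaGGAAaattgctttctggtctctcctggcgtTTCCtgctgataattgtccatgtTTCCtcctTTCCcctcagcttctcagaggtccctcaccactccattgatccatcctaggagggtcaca
Reln: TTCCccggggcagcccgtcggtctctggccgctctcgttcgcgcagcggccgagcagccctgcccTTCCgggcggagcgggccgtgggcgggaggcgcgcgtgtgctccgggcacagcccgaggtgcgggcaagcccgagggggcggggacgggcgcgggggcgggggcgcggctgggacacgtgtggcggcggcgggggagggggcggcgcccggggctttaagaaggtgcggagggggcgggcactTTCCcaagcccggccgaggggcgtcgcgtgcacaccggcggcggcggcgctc
Fgl2: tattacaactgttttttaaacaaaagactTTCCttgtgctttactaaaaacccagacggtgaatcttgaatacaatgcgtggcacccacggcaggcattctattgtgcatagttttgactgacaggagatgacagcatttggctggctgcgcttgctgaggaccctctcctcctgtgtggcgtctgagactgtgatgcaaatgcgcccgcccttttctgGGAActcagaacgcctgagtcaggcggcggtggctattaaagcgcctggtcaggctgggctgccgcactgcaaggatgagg
The core occurred 9 times in the Mmrn1, 3 times in the Reln and 2 times in the Fgl2 stretch, and 96.0% of 32851 RefSeq promoters hold it at least once. The SOX-type motif AACAAT (or ATTGTT) occurred 1 time in the Mmrn1 stretch, where it overlaps no ETS core, and in neither of the other two; 10.7% of all promoters hold it. The nuclear receptor motif AGGTCA (16.3% of promoters) and the GATA motif AGATAA (11.2%), read on both strands, were in none of the 3. The stretches differ in base composition, with 3 CG steps in Mmrn1, 12 in Fgl2 and 47 in Reln.

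In P1 heart, TdTomato+ cells held less RNA of every member than TdTomato- cells. All 6 were called lower, where 14.7% of all genes were called in either direction and 7.21% lower. The drop was between 9.27-fold for Fgl2 and 56.8-fold for Mmrn1 in the fit, and the members' median log2 fold change was -5.05, against -0.04 for all genes. In the same libraries the TdTomato+ group lay wholly below the TdTomato- group for 6 of 6 members, as it did for 5.82% of all genes.

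Prox1, the lineage factor, stood at 1.32, 0, 4.17 and 3.16 CPM in the TdTomato+ libraries of pairs 2 to 5, against 8.09, 8.67, 24.7 and 31.9 CPM in the TdTomato- libraries. The highest TdTomato+ library was under the lowest TdTomato- library. Prox1 fell by 3.39 on the log2 scale (SE 0.74, edgeR adjusted p = 0.00334).

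Lyve1, the hyaluronan receptor, stood at 0.329, 0.801, 2.69 and 2.83 CPM in TdTomato+ libraries, against 27.8, 58.0, 71.6 and 65.0 CPM in TdTomato- libraries. No library of one fraction came near the other. Lyve1 fell by 5.14 (SE 0.57, edgeR adjusted p = 3.63e-06). Summed over libraries, its level in TdTomato- cells was 31.7 times that in TdTomato+ cells.

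Podoplanin RNA was at the limit of detection in TdTomato+ cells. Pdpn had 0, 0, 0 and 3 counts in TdTomato+ libraries, against 17, 13, 6 and 72 counts in TdTomato- libraries. All 3 TdTomato+ counts came from pair 5. The summed level was 31.6 times higher in TdTomato- cells, with a 95% counting interval of 10.5 to 156, and Pdpn was called lower (edgeR adjusted p = 4.18e-05).

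Among the secreted products, Mmrn1 stood at 0.0548, 0.0422, 0.0448 and 1.64 CPM in TdTomato+ libraries, against 8.40, 10.3, 7.29 and 65.0 CPM in TdTomato- libraries. These TdTomato+ levels rest on 1, 1, 1 and 40 counts, so Mmrn1 was at the limit of detection in 3 of 4. Mmrn1 fell by 5.83 (SE 0.68, edgeR adjusted p = 5.75e-06), the 134th lowest log2 fold change of 15557 genes. Reln had 0, 0, 0 and 16 counts in TdTomato+ libraries, against 116, 29, 47 and 295 counts in TdTomato- libraries. Reelin RNA was thus seen in TdTomato+ cells of pair 5 only, and Reln fell by 5.13 (SE 0.99, edgeR adjusted p = 0.00131).

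Fgl2, the fibrinogen-like gene, kept the highest TdTomato+ level of the 6 in this tissue per kilobase, at 0.913 CPM per kb. It stood at 0.932, 3.00, 4.66 and 5.17 CPM in TdTomato+ libraries, against 19.7, 33.6, 16.7 and 59.9 CPM in TdTomato- libraries. The groups did not overlap. Fgl2 fell by 3.21 (SE 0.37, edgeR adjusted p = 5.75e-06).

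Pair 5 stood apart from pairs 2 to 4 in both fractions. Its TdTomato- library was the highest of the 4 for Prox1, Mmrn1, Pdpn, Reln and Fgl2, and its TdTomato+ library the highest for Lyve1, Mmrn1, Pdpn, Reln and Fgl2. Without it all 6 members stayed called, and the summed Mmrn1 level in TdTomato- cells was 187 times that in TdTomato+ cells (95% counting interval 63.7 to 909), against 47.4 times with it. Without it Pdpn and Reln had no count in TdTomato+ cells, which puts them at least 10.2-fold and at least 54.6-fold lower, taking 3 counts over the group as the floor. Such intervals and floors cover no error but that of counting.

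Markers of other cells moved in this comparison, not all in one direction. The 8 fibroblast markers summed to 10.7, 11.9, 50.9 and 354 CPM in TdTomato+ libraries and 501, 757, 652 and 878 CPM in TdTomato- libraries, with 6 of 8 called lower and none at 0. The 5 markers of endocardium, the lining of the heart chambers, summed to 109 to 193 CPM in TdTomato+ and 264 to 417 CPM in TdTomato- libraries, with 5 of 5 called lower. Pan-endothelial markers summed to 5910 to 9720 CPM in TdTomato+ and 6160 to 7520 CPM in TdTomato- libraries, with no marker at 0. Macrophage markers summed to 4.64 to 18.4 CPM in TdTomato+ and 6.60 to 14.4 CPM in TdTomato- libraries, with 0 of 9 called and Cd163 at 0 in both fractions. The 7 cardiomyocyte markers, of cells that also express Prox1, summed to 11.12 to 92.93 CPM in TdTomato+ and 19.5 to 132 CPM in TdTomato- libraries, with 1 of 7 called. The 5 mesothelial markers went the other way, at 82.6 to 103 CPM in TdTomato+ and 54.2 to 82.2 CPM in TdTomato- libraries. Of these markers, 1 was at 0 in TdTomato+ cells. The part of these cells in the members' levels was not tested. The RNA integrity number was 3.6 to 8.5 in TdTomato+ and 8.0 to 9.2 in TdTomato- libraries, and all 6 members stayed called with it as a covariate. When P1 heart was fitted on its own and unpaired, Pdpn did not pass the count filter, Prox1 (adjusted p = 0.111) and Reln (adjusted p = 0.105) lost the call, and the other 3 members kept it.

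The related gene lists moved less in P1 heart. Of 16 other lymphatic markers in the table, 5 were called lower and 0 higher, with a median log2 fold change of -0.39. Cp, the ceruloplasmin gene, averaged 2.29 ± 2.26 CPM in TdTomato+ and 17.7 ± 6.14 CPM in TdTomato- cells (SD, n = 4 each; -3.21 ± 0.46, adjusted p = 6.79e-05). Pard6g, a cell polarity gene, averaged 12.7 ± 4.41 CPM in TdTomato+ and 37.4 ± 9.26 CPM in TdTomato- cells (-1.59 ± 0.23, adjusted p = 8.37e-05). The transcription factor list went both ways, with 4 of 11 lower and 1 higher: Foxc1 fell by 1.73 (SE 0.17, adjusted p = 6.61e-07), and Sox18, an activator of Prox1 in the mouse embryo, rose by 0.62 (SE 0.11, adjusted p = 0.000455). Of 13 genes of valves and remodelling, 3 were lower, among them the polarity gene Celsr1 and the tight junction gene Cldn11. In the Vegfc list 2 of 9 genes were lower and 2 higher, and Adamts3, which activates Vegfc, had no count in TdTomato+ libraries while it stood at 0.349 to 1.35 CPM in TdTomato- libraries. Flt4, the receptor, averaged 141 ± 29.6 CPM in TdTomato+ and 125 ± 15.3 CPM in TdTomato- cells. The reelin receptor gene Vldlr fell by 3.32 (SE 0.67, adjusted p = 0.00202), and 0 of 7 hyaluronan genes were called (edgeR).

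**Figure D2:**
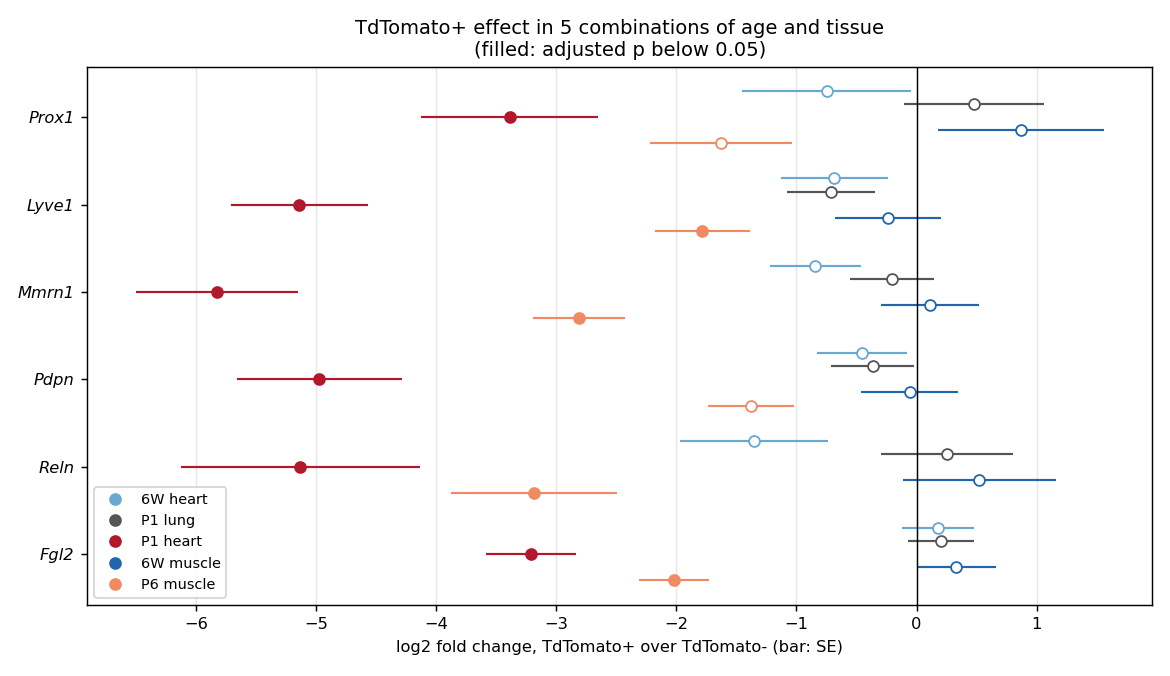
Log2 fold change of TdTomato+ over TdTomato- cells for each member (points) with its SE (bars) in 5 combinations of age and tissue; filled points were called at adjusted p below 0.05. The points of P1 heart lie between -5.83 and -3.21 and those of P6 muscle between -3.19 and -1.38, while those of the other 3 combinations lie on both sides of 0.

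In muscle at P6, all 6 members were again lower in TdTomato+ cells. Their fitted changes were smaller than in P1 heart, a difference that was not tested directly. Lyve1, Mmrn1, Reln and Fgl2 were called lower and Prox1 and Pdpn were not, where 0.977% of all genes were called and 0.354% lower. The members' median log2 fold change was -1.90, against 0.00 for all genes. The TdTomato+ group lay wholly below the TdTomato- group for 6 of 6 members, as for 2.02% of all genes.

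Mmrn1 stood at 11.9, 12.4, 21.2, 8.42 and 24.5 CPM in the TdTomato+ libraries of pairs 1 to 5, against 120.6, 99.2, 78.5, 101.1 and 122.8 CPM in the TdTomato- libraries. The lowest TdTomato- library was over 3 times the highest TdTomato+ one. Mmrn1 fell by 2.81 (SE 0.38, edgeR adjusted p = 0.000188). Fgl2 stood at 31.07, 18.3, 16.8, 12.3 and 27.0 CPM in TdTomato+ libraries, against 106.3, 70.2, 63.8, 80.3 and 92.8 CPM in TdTomato- libraries. Its pair differences lay close together, between -2.69 and -1.77 on the log2 scale, and Fgl2 fell by 2.02 (SE 0.29, edgeR adjusted p = 0.000368).

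Lyve1 stood at 34.6, 17.0, 49.9, 18.4 and 20.01 CPM in TdTomato+ libraries, against 95.6, 81.8, 74.9, 110.0 and 83.2 CPM in TdTomato- libraries. The gap was narrowest in pair 3. Lyve1 fell by 1.78 (SE 0.39, edgeR adjusted p = 0.0224), and lost the call without pair 1, 2, 4 or 5 (adjusted p = 0.0674 to 0.152). Leaving out any pair of P6 muscle also lowered the number of calls over all genes, from 152 to between 70 and 86.

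Reln was patchy in TdTomato+ cells. It had 63, 1, 71, 14 and 0 counts in TdTomato+ libraries, against 203, 189, 92, 150 and 141 counts in TdTomato- libraries. Pairs 2 and 5 held almost none, while pairs 1 and 3 reached 2.66 and 2.79 CPM, still under the lowest TdTomato- library, that of pair 3. Reln fell by 3.19 (SE 0.69, edgeR adjusted p = 0.0199), and lost the call without pair 2, 4 or 5 (adjusted p = 0.0962 to 0.116).

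Prox1 and Pdpn were lower in 5 of 5 pairs without passing the test. Prox1 stood at 12.09, 2.84, 9.83, 4.23 and 11.6 CPM in TdTomato+ libraries, against 29.12, 20.6, 19.2, 23.5 and 19.3 CPM in TdTomato- libraries (-1.63 ± 0.59, edgeR adjusted p = 0.323). Pdpn stood at 2.33, 1.56, 2.44, 1.48 and 1.88 CPM in TdTomato+ libraries, against 4.66, 5.52, 4.91, 5.64 and 4.19 CPM in TdTomato- libraries (-1.38 ± 0.36, edgeR adjusted p = 0.0696). Both had an unadjusted p under the threshold, and Pdpn was called by DESeq2 (adjusted p = 0.00674) and with RNA integrity as a covariate (0.0270). In a fit of the P6 muscle libraries alone with the pairing, both were called, Prox1 at an adjusted p of 0.0102 and Pdpn at 0.0284, while Reln was not (adjusted p = 0.0600).

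Fibroblast and endocardial markers did not part the fractions here as in P1 heart. Fibroblast markers summed to 934 to 1930 CPM in TdTomato+ and 678 to 1750 CPM in TdTomato- P6 muscle libraries, with 0 of 8 called and Tcf21 at 0 in both fractions. Endocardial markers summed to 169 to 194 CPM in TdTomato+ and 181 to 205 CPM in TdTomato- libraries, with 0 of 5 called. Macrophage markers summed to 9.09 to 63.4 CPM in TdTomato+ and 9.87 to 21.6 CPM in TdTomato- libraries, with 0 of 9 called. Without the pairing 2 of 6 members were called, with Lyve1 at an adjusted p of 0.284 and Reln at 0.221, and with the failed P1 heart pair 1 in the model Mmrn1 alone was. The authors' deposited table gives a false discovery rate below 0.05 in P6 muscle to Fgl2 (0.0344) and Mmrn1 (0.0362) only, and in P1 heart to all 6.

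Of the related lists in P6 muscle, 4 of 16 other lymphatic markers were lower and 0 higher, with a median log2 fold change of -0.60. Pard6g averaged 10.4 ± 1.06 CPM in TdTomato+ and 34.0 ± 9.00 CPM in TdTomato- cells (SD, n = 5 each; -1.68 ± 0.21, adjusted p = 8.14e-05), and Clca3a1, a surface protein gene of lymphatic endothelium, averaged 9.61 ± 2.05 CPM in TdTomato+ and 21.7 ± 3.58 CPM in TdTomato- cells (-1.19 ± 0.21, adjusted p = 0.00398). Vegfc averaged 48.2 ± 4.76 CPM in TdTomato+ and 74.4 ± 5.46 CPM in TdTomato- cells (-0.63 ± 0.11, adjusted p = 0.00237). Cd44, another hyaluronan receptor, averaged 81.4 ± 7.63 CPM in TdTomato+ and 146 ± 15.4 CPM in TdTomato- cells (-0.84 ± 0.11, adjusted p = 0.000195). None of 11 lymphatic transcription factor genes and none of 3 reelin receptor and adaptor genes was called, and 1 of 13 valve and remodelling genes was, the connexin gene Gja4 (-0.70 ± 0.14, adjusted p = 0.0110; edgeR).

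In P1 lung, where the members were most abundant, none was called, where 9.78% of all genes were. None had an unadjusted p under the threshold, and DESeq2 called none. The members' median log2 fold change was 0.00. Lyve1 was lower in 5 of 5 pairs, at 1782, 969, 602.5, 488 and 631 CPM in the TdTomato+ libraries of pairs 1, 5, 6, 7 and 8, against 2554, 1065, 999, 1207 and 1164 CPM in the TdTomato- libraries. The ranges overlapped through the TdTomato+ library of pair 1, and the difference was -0.71 ± 0.37 (edgeR adjusted p = 0.260). In a fit of the lung libraries alone with the pairing, Lyve1 was called (-0.71, adjusted p = 0.0314). Fgl2 was higher in 5 of 5 pairs, by 0.01 to 0.44 on the log2 scale, and its difference was 0.20 ± 0.28 (adjusted p = 0.743).

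The other lung values went both ways. Prox1 ran from 19.97 to 53.1 CPM in TdTomato+ and from 13.2 to 30.8 CPM in TdTomato- libraries (0.48 ± 0.58, adjusted p = 0.702). Mmrn1 ran from 104.6 to 251.7 CPM in TdTomato+ and from 121.0 to 315.9 CPM in TdTomato- libraries (-0.21 ± 0.35, adjusted p = 0.806). Reln ran from 17.0 to 65.7 CPM in TdTomato+ and from 21.9 to 40.8 CPM in TdTomato- libraries (0.25 ± 0.55, adjusted p = 0.857). Pdpn, which alveolar epithelium also makes, ran from 4.64 to 20.7 CPM in TdTomato+ and from 13.4 to 22.8 CPM in TdTomato- libraries (-0.37 ± 0.34, adjusted p = 0.595). The 10 alveolar epithelial markers summed to 1282, 2493, 24590, 43240 and 63200 CPM in the TdTomato+ libraries and to 2350, 2117, 3193, 8220 and 7800 CPM in the TdTomato- libraries, with 4 called higher, 1 lower and none at 0. Platelet markers, of cells that store multimerin, summed to 14.15 to 57.96 CPM in TdTomato+ and 99.3 to 146 CPM in TdTomato- libraries, with 3 of 7 called lower. Their part in the members' levels was not tested.

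Several related genes were called in P1 lung while the members were not. Celsr1 was higher by 1.63 ± 0.46 (adjusted p = 0.0226) and the connexin gene Gja1 by 0.95 ± 0.15 (adjusted p = 0.000163). The Vegfc co-receptor gene Nrp2 was higher by 0.86 ± 0.14 (adjusted p = 0.000164), and the receptor gene Kdr lower, at -0.58 ± 0.14 (adjusted p = 0.00682). Of 7 hyaluronan genes 2 were lower, the hyaluronidase genes Hyal2 at -0.55 ± 0.07 (adjusted p = 9.79e-06) and Hyal1 at -1.16 ± 0.19 (adjusted p = 0.000216). Foxc1, lower in P1 heart, was higher in lung by 0.85 ± 0.15 (adjusted p = 0.000503), while another lymphatic transcription factor gene was called lower. Of 16 other lymphatic markers, 3 were lower and 2 higher (edgeR).

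At 6W no member was called in heart or in muscle, where 0.874% and 5.23% of all genes were called. In 6W heart Mmrn1 and Reln had an unadjusted p under the threshold and DESeq2 called none. Mmrn1 stood at 11.7, 49.2, 20.6, 57.2 and 12.5 CPM in the TdTomato+ libraries of pairs 1, 2, 4, 5 and 6, against 16.9, 20.4, 71.4, 122.8 and 45.7 CPM in the TdTomato- libraries (-0.84 ± 0.38, adjusted p = 0.391). Reln stood at 1.97, 9.87, 2.52, 7.88 and 0.740 CPM in TdTomato+ libraries, against 3.56, 6.12, 7.75, 26.9 and 9.34 CPM in TdTomato- libraries (-1.36 ± 0.62, adjusted p = 0.397). Both were lower in 4 of 5 pairs and higher in pair 2. Pairs 5 and 6 come from another sequencing run and carry a tissue label of muscle beside titles of heart. Their cardiomyocyte markers summed to 159 to 335 CPM, against 0.444 to 27.3 CPM in 6W muscle libraries. Skeletal muscle markers summed to 49.6 to 109 CPM in them and to 72.7 to 288 CPM in 6W muscle libraries. Without pairs 5 and 6 the differences were -0.36 ± 0.49 for Mmrn1 and -0.57 ± 0.74 for Reln.

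The other members at 6W had no unadjusted p under the threshold in either tissue. In heart, Prox1 was at -0.75 ± 0.70, Lyve1 at -0.68 ± 0.44, Pdpn at -0.46 ± 0.38 and Fgl2 at 0.18 ± 0.30 on the log2 scale. In muscle all 6 lay between -0.24 and 0.87, with SE of 0.33 to 0.69. Prox1 stood at 7.45, 7.94, 22.7 and 8.04 CPM in the TdTomato+ muscle libraries of pairs 2 to 5, against 3.92, 5.03, 3.32 and 13.7 CPM in the TdTomato- libraries, higher in 3 of 4 pairs (0.87 ± 0.69, adjusted p = 0.613).

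Within single pairs at 6W, 5 of 9 had all 6 members on one side. In 6W heart pair 2 all 6 were higher in the TdTomato+ library, and in pairs 4 and 5 all 6 were lower. In pairs 1 and 6 of 6W heart 5 of 6 were lower. In 6W muscle pair 4 all 6 were higher in the TdTomato+ library, in pair 5 all 6 were lower, and pairs 2 and 3 had 4 and 3 lower. In the P1 lung no pair had all 6 on one side, and in P1 heart and P6 muscle every pair had all 6 lower. The fractions overlapped for every member in P1 lung, 6W heart and 6W muscle, where the TdTomato+ group lay wholly below the TdTomato- group for 2.13%, 0.559% and 4.0% of all genes. Over the 23 pairs Lyve1 was lower in 21, Mmrn1 in 20, Pdpn in 18, Prox1 and Reln in 16 each, and Fgl2 in 13.

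Of the related genes at 6W, Nr2f2, which acts with Prox1 in lymphatic endothelium, averaged 39.0 ± 16.4 CPM in TdTomato+ and 18.5 ± 3.87 CPM in TdTomato- heart cells (SD, n = 5 each; 1.00 ± 0.17, adjusted p = 0.00539). It was the only one of 11 transcription factor genes called there, and none of 16 other lymphatic markers was. In muscle, Gja4 averaged 29.09 ± 6.14 CPM in TdTomato+ and 119.9 ± 44.6 CPM in TdTomato- cells (SD, n = 4 each; -1.98 ± 0.17, adjusted p = 1.11e-07). Nrp2 was higher there by 0.68 ± 0.15 (adjusted p = 0.00844) and the ephrin receptor gene Ephb4 by 0.47 ± 0.09 (adjusted p = 0.00365). Of 16 other lymphatic markers 1 was lower, the neurotensin gene Nts, and 1 higher, the transcription factor gene Tshz2 (edgeR).

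**Figure D3:**
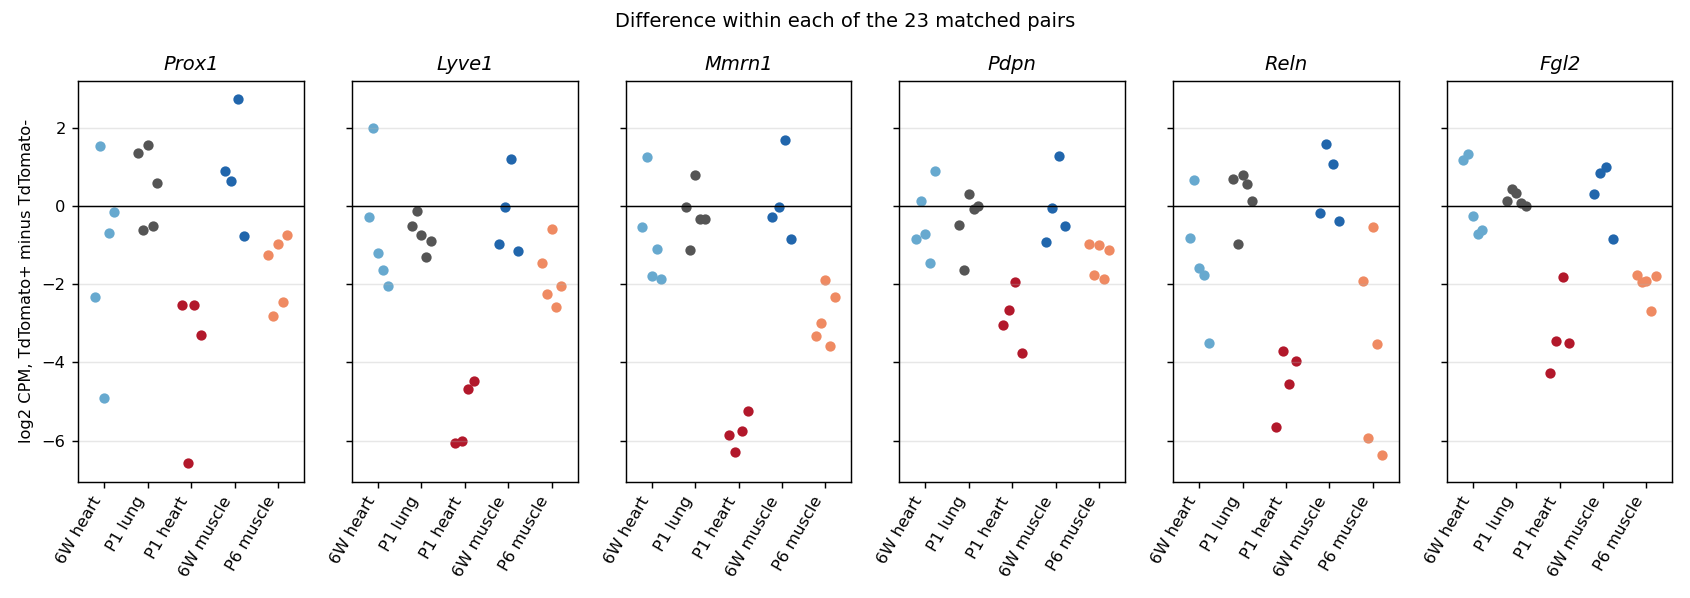
Difference in log2 CPM, TdTomato+ minus TdTomato-, within each of the 23 matched pairs (points), for each member by age and tissue. All points of P1 heart and P6 muscle lie below 0, and those of 6W heart and 6W muscle lie on both sides.

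Averaged over the 5 combinations with equal weight, 5 of 6 members were called lower in TdTomato+ cells, where 8.39% of all genes were called and 3.99% lower. The mean log2 effect was -1.92 ± 0.21 for Mmrn1, -1.78 ± 0.32 for Reln, -1.71 ± 0.20 for Lyve1, -1.45 ± 0.21 for Pdpn and -0.90 ± 0.14 for Fgl2. Prox1 was at -0.88 ± 0.29 (edgeR adjusted p = 0.0639). Reln lost its call with RNA integrity as a covariate (adjusted p = 0.0518), and Prox1 gained one by DESeq2 (0.0145), without 6W heart pair 2 (0.0261) or without 6W muscle pair 4 (0.0378). The effects were unequal: the test of equal effects over the 5 combinations was called for 6 of 6 members, where 16.8% of all genes were. Its adjusted p ran from 9.21e-06 for Fgl2 to 0.0141 for Prox1, and Prox1 lost the call with P1 heart pair 1 included (0.0974).

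In heart the TdTomato+ effect was smaller at 6W than at P1 for 4 members, where 8.05% of all genes were called and 4.26% had the higher effect at 6W. The effect at 6W minus that at P1 was 4.99 ± 0.80 for Mmrn1 on the log2 scale (edgeR adjusted p = 0.000312), 4.52 ± 0.80 for Pdpn (0.000745), 4.46 ± 0.72 for Lyve1 (0.000323) and 3.39 ± 0.47 for Fgl2 (6.83e-05). Reln, at 3.78 ± 1.21, had an adjusted p of 0.0546. It was called without P1 heart pair 5 (7.33, adjusted p = 0.0437), by DESeq2 (0.00258) and with RNA integrity as a covariate (0.0474). Total-count scaling (0.0486) and leaving out 6W heart pair 6 (0.0255) or pairs 5 and 6 (0.0230) gave the call too. Prox1 was at 2.64 ± 1.03 (adjusted p = 0.123), and was called without 6W heart pair 4 (0.0359). Without P1 heart pair 5 Mmrn1 was at 6.53 and Pdpn at 5.87, both still called. Pdpn and Reln then had no TdTomato+ count at P1, so their fitted differences depend on edgeR's default prior count. These differences share their P1 libraries with the P1 heart comparison above. Fibroblast markers summed to at least 242 CPM in TdTomato+ and at most 215 CPM in TdTomato- 6W heart libraries. In P1 heart this order was reversed, at most 354 CPM in TdTomato+ and at least 501 CPM in TdTomato- libraries. Pericyte and smooth muscle markers summed to 227 to 1500 CPM in TdTomato+ and at most 288 CPM in TdTomato- 6W heart libraries. The part of these cells in the differences was not tested.

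In muscle the effect at 6W minus that at P6 was called for 3 members, all above 0, where 1.57% of all genes were called and 0.45% above 0. It was 2.92 ± 0.55 for Mmrn1 (edgeR adjusted p = 0.00709), 2.35 ± 0.44 for Fgl2 (0.00631) and 3.71 ± 0.95 for Reln (0.0466). Prox1 at 2.50 ± 0.91, Lyve1 at 1.55 ± 0.59 and Pdpn at 1.32 ± 0.54 did not pass. Without the pairing 0 of 6 passed, with Mmrn1 at 2.83 (adjusted p = 0.215). With P1 heart pair 1 included none of the 3 calls held (adjusted p = 0.167 for Mmrn1, 0.343 for Fgl2 and 0.634 for Reln). Reln kept the call in 1 of 9 fits that left out a pair (adjusted p up to 0.164), Fgl2 lost it without 6W muscle pair 4 (0.0525), and Mmrn1 kept it in all 9. In these fits the number of calls over all genes fell from 244 to between 50 and 201. The RNA integrity number was 6.8 to 7.9 in TdTomato+ and 9.2 to 10.0 in TdTomato- 6W muscle libraries, and with it as a covariate Fgl2 kept the call while Mmrn1 (0.0796) and Reln (0.185) lost it. All 6W muscle libraries are of the second sequencing run and all P6 muscle libraries of the first, so age and run cannot be told apart in the levels of muscle, though each fraction effect was measured within a run.

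Levels were next compared within a fraction. In TdTomato+ heart, 5 members were higher at 6W than at P1, where 43.0% of all genes were called and 21.6% higher. Mmrn1 averaged 30.2 ± 21.4 CPM at 6W (SD, n = 5) and 0.446 ± 0.797 CPM at P1 (SD, n = 4), a log2 fold change of 5.98 ± 0.78 (edgeR adjusted p = 1.92e-06). Lyve1 averaged 17.3 ± 17.3 CPM at 6W and 1.66 ± 1.28 CPM at P1 (3.35 ± 0.70, adjusted p = 0.000480). Fgl2 averaged 26.6 ± 10.9 CPM at 6W and 3.44 ± 1.91 CPM at P1 (2.94 ± 0.44, adjusted p = 1.07e-05). Pdpn (5.01 ± 0.76) and Reln (4.68 ± 1.16) were higher as well, while Prox1 averaged 3.27 ± 4.19 CPM at 6W and 2.16 ± 1.86 CPM at P1 and was not called (0.60 ± 0.94, adjusted p = 0.639). Without P1 TdTomato+ replicate 5 the change of Mmrn1 was 9.18, with 3 counts left at P1. Pdpn and Reln then had no count left at P1, so that their fitted changes (7.77 and 9.65) depend on edgeR's default prior count. All 5 calls held. Fibroblast markers summed to 242 to 1130 CPM at 6W and 10.7 to 354 CPM at P1 in TdTomato+ heart, with 4 of 8 called higher. Pericyte and smooth muscle markers summed to 227 to 1500 CPM at 6W and at most 83.6 CPM at P1, with 6 of 7 called higher. No marker of either list was at 0, and their part in the members' levels was not tested.

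TdTomato- heart cells gave another picture. Prox1 fell to 2.97 ± 1.44 CPM at 6W (n = 5), against 18.3 ± 11.9 CPM at P1 (n = 4), a log2 fold change of -2.63 ± 0.45 (edgeR adjusted p = 3.91e-05). Lyve1 fell to 24.7 ± 18.9 CPM at 6W, against 55.6 ± 19.4 CPM at P1 (-1.18 ± 0.42, adjusted p = 0.0226), and lost the call without P1 replicate 4 or 5 or 6W replicate 2 (adjusted p = 0.0512 to 0.0676). The other 4 members were not called, where 49.3% of all genes were called and 25.3% lower. Mmrn1 was at 1.28 ± 0.60 (adjusted p = 0.0793), and without P1 replicate 5, the high library, it was at 2.66 (adjusted p = 0.000366), Pdpn at 1.95 (0.00275) and Reln at 2.06 (0.00430). With 6W libraries of the first run only, the run of P1 heart, Prox1 and Lyve1 were again called lower in TdTomato- cells, and 5 members higher in TdTomato+ cells.

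In muscle, 2 members were higher at 6W than at P6 in TdTomato+ cells, where 34.0% of all genes were called and 16.3% higher. Reln averaged 19.3 ± 7.61 CPM at 6W (n = 4) and 1.21 ± 1.401 CPM at P6 (n = 5), a log2 fold change of 3.97 ± 0.93 (edgeR adjusted p = 0.00188). Mmrn1 averaged 67.9 ± 37.8 CPM at 6W and 15.7 ± 6.82 CPM at P6 (2.11 ± 0.55, adjusted p = 0.00445). The remaining 4 lay between 0.50 and 0.87. In TdTomato- cells 2 members were lower at 6W, where 42.5% of all genes were called and 21.5% lower: Prox1 averaged 6.48 ± 4.84 CPM at 6W and 22.4 ± 4.16 CPM at P6 (-1.79 ± 0.45, adjusted p = 0.00270), and Fgl2 28.8 ± 16.7 CPM at 6W and 82.7 ± 17.2 CPM at P6 (-1.52 ± 0.44, adjusted p = 0.00717). Prox1 was thus lower at 6W than at the younger age in TdTomato- cells of both tissues. Taken singly, heart had 25.3% of all genes called lower and muscle 21.5%, and the share called lower in both was not counted. In muscle age and sequencing run cannot be told apart.

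Between tissues at P1, lung was compared with heart. All 6 members were called in TdTomato+ cells, where 34.5% of all genes were, and 5 of 6 in TdTomato- cells, where 36.9% were. Each of these was higher in lung. Lyve1 was higher in lung by 9.04 ± 0.85 in TdTomato+ and by 4.65 ± 0.49 in TdTomato- cells (log2, edgeR adjusted p = 5.49e-08 and 8.20e-08). Mmrn1 was higher by 8.54 ± 0.83 in TdTomato+ and 3.17 ± 0.64 in TdTomato- cells, and Fgl2 by 4.91 ± 0.47 in TdTomato+ and 1.502 ± 0.43 in TdTomato- cells. Without P1 heart replicate 5, Mmrn1 was higher in lung by 11.73 in TdTomato+ and 4.56 in TdTomato- cells, Pdpn by 5.19 and Reln by 3.57 in TdTomato- cells, and the calls held. The fitted differences of Pdpn and Reln in TdTomato+ cells (11.31 and 12.7) then depend on edgeR's default prior count, since no count was left in heart. Alveolar epithelial markers, of cells some of which make podoplanin, summed to 1280 to 63200 CPM in lung and 53.1 to 88.7 CPM in heart in TdTomato+ cells (9 of 10 called higher, 2 at 0 in heart). In TdTomato- cells they summed to 2120 to 8220 CPM in lung and 60.5 to 74.1 CPM in heart (10 of 10 called higher, 1 at 0 in heart). Their part in the level of Pdpn was not tested. Prox1 set itself apart from the rest. It was higher in lung by 3.96 ± 1.05 in TdTomato+ cells (adjusted p = 0.00590), but in TdTomato- cells averaged 23.7 ± 7.40 CPM in lung (n = 5) and 18.3 ± 11.9 CPM in heart (n = 4), with no call (0.37 ± 0.43, adjusted p = 0.534). Lung and heart libraries carry different batch numbers in the run sheets, so tissue and that batch cannot be told apart.

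At 6W heart and muscle did not differ in any member by the test, in either fraction, where 15% of all genes were called in TdTomato+ and 21.9% in TdTomato- cells. In TdTomato+ cells all 6 members were on the lower side in heart, between -2.06 and -0.34, and Lyve1, Mmrn1, Pdpn and Reln had an unadjusted p under the threshold. In TdTomato- cells they lay between -1.13 and -0.20, and Prox1 and Lyve1 had such a p. DESeq2 called Pdpn in TdTomato+ cells (adjusted p = 0.0144) and Prox1 in TdTomato- cells (adjusted p = 0.0428). With 6W heart libraries of the second run only, the run of 6W muscle, none was called by edgeR.

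**Figure D4:**
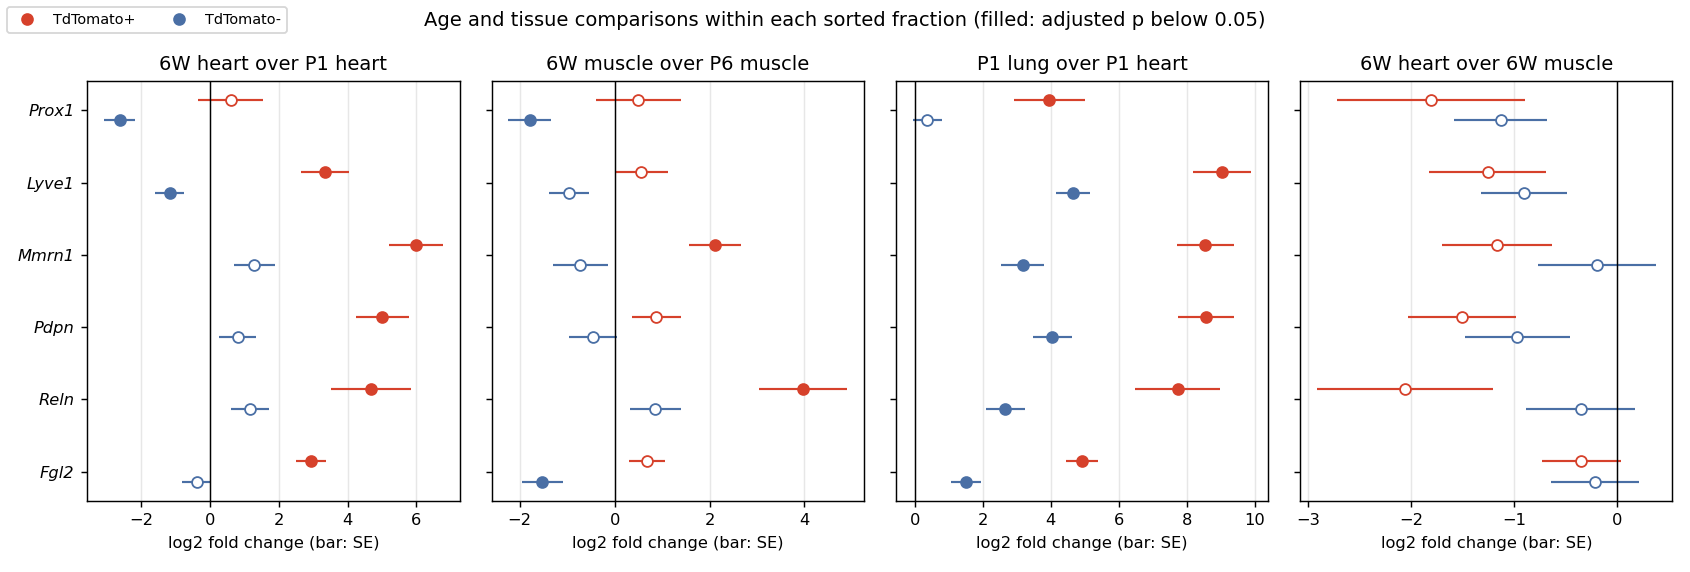
Log2 fold changes with SE of the members between ages and tissues within TdTomato+ cells (red, above) and TdTomato- cells (blue, below); filled points were called at adjusted p below 0.05. In heart, 6W over P1, the red points of 5 members lie right of 0 while the blue points of Prox1 and Lyve1 lie left of it.

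Across the 46 libraries the log2 CPM of the members correlated with each other, with Pearson's r from 0.54 (Prox1 and Reln) to 0.91 (Mmrn1 and Fgl2). These values share the difference between groups. As deviations from the 10 group means, r ran from 0.23 (Prox1 and Pdpn) to 0.77 (Lyve1 and Fgl2), and Mmrn1 and Reln stood at 0.62. Libraries of one matched pair share a replicate number, and the 46 points are not independent.

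**Figure D5:**
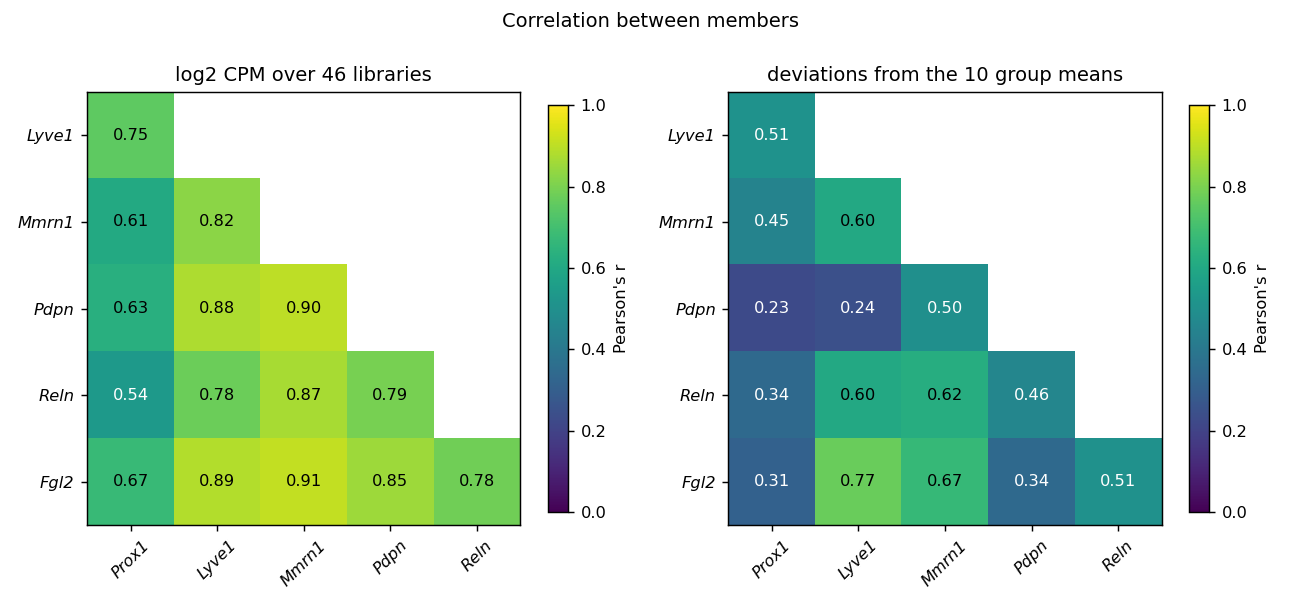
Pearson's r between the members over 46 libraries, for log2 CPM (left) and for deviations from the 10 group means (right); colour gives r from 0 to 1. Prox1 has the lowest values with each of the others on the left, and Lyve1 with Fgl2 the highest on the right.

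The genes most like each member were ranked by Pearson's r of log2 CPM over the 46 libraries, among genes with a mean of 1 CPM or more. Pdpn was most like Tbx1, a T-box transcription factor gene needed for lymphatic development in the mouse (r = 0.92), then Mmrn1 and Lyve1. Mmrn1 and Fgl2 were both near Dtx1, a regulator of Notch signalling (r = 0.92 and 0.90), and near each other, and Fgl2 also near Slc45a3 (0.90). Lyve1 was most like Cd24a (0.90) and Olfm1 (0.90), then Fgl2. Reln followed Mmrn1 (0.87), Mllt3 (0.84) and Ddr1 (0.83). Prox1 had no other member among its 3, which were Nmnat2, Arrdc3 and Flrt3 (0.80, 0.80 and 0.80). On deviations from group means, Lyve1 and Fgl2 were near each other and both near Cyp1b1, which encodes a cytochrome P450 enzyme (0.76 for Lyve1 and 0.75 for Fgl2). There Mmrn1 was nearest Twsg1 (0.78), Socs6 (0.75) and Gpm6a (0.72), Reln nearest Mmrn1, Lyve1 and Fndc1 (0.62, 0.60 and 0.60), Pdpn nearest Cox6b2, Perp and Cybrd1 (0.63, 0.62 and 0.60), and Prox1 nearest Lgmn, Nmnat2 and Ccdc181 (0.67, 0.65 and 0.65).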

How the data were processed

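Per the submitters' processing notes, reads were aligned with STAR to mm10, counted per gene with featureCounts and compared with edgeR; the sources used here give no versions. The deposited table holds raw counts of 48 libraries, from which all values here were computed, together with gene positions and lengths in bases and the authors' own comparisons (log2 fold changes, p-values and false discovery rates, in log2 and p-value columns). The authors' run sheets give the RNA integrity score of each library and its sequencing run. The labels name an RNA Access kit and poly(A) selection while the deposited run sheets name SMART-Seq v4, so the preparation is unsettled; amplification from small inputs adds noise to genes of few counts.

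The 6 members and all gene lists were chosen with earlier results of these data known. Prox1, Lyve1, Mmrn1, Pdpn, Reln and Fgl2 are always named, Abcg2 once, then the 2 genes of smallest p among those called per list and comparison, and the 3 genes most correlated with each member over libraries and over deviations from group means. One gene that this rule names is not reported here. Vegfd is in the table under its older symbol Figf, and Ccl21a, Ccl21b and Ccl21c were not analysed here. Figf (P6 muscle) and Adamts14 (P1 heart and 6W heart) were called on libraries at or near 0 in one fraction and are not described further.

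Fraction effects came from 1 edgeR 4.0.16 quasi-likelihood model (limma 3.58.1, R 4.3.3) over 46 libraries with a block for each of the 23 pairs and a TdTomato+ effect per combination of age and tissue; ages and tissues were compared within a fraction over its 23 libraries. Scaling between libraries was by edgeR's TMM. Genes of low counts were removed with edgeR's default filter, and adjusted p-values are Benjamini-Hochberg over 15557 genes (14966 in TdTomato+ and 14802 in TdTomato- fits). SE is the log2 fold change divided by the root of F. Log2 CPM used a prior count of 2, while the fits kept edgeR's default prior count. Replicate numbers come from the titles and were taken to pair the fractions: over 9451 genes at 10 CPM or more, deviations of the fractions of a pair correlated above 0.1 in 22 of 23 pairs (median 0.321, lowest -0.007) and the best match was the own pair in 19. No 2 libraries were identical or agreed within counting noise. The table was already filtered, since its lowest gene total is 56. Alternatives were DESeq2 1.42.0, no block, total-count scaling, no filter, the RNA integrity number as covariate, pair 1 of P1 heart included, single combinations, 1 sequencing run, and each pair left out. Fits of the fraction effects that left out a pair kept the trend of spread with level estimated from all pairs. The models were tested on simulated data. Run sheet entries of 2 other samples were not used.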

Additional observations from a re-analysis of the deposited data

Results flagged for a closer look

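Of 60 groups of a member's CPM values, 14 held 1 library whose gap to the nearest of the others was a large share of the group's range (Dixon's criterion at the 95% level, which also flags some groups by chance). P1 heart replicate 5 held 5 of them: Mmrn1 at 1.64 CPM in the TdTomato+ and 65.0 CPM in the TdTomato- library, Pdpn at 0.123 CPM in the TdTomato+ and 2.82 CPM in the TdTomato- library, and Reln at 0.657 CPM in the TdTomato+ library. TdTomato+ P1 heart library 5 also had 354 CPM of fibroblast markers, against 10.7 to 50.9 CPM in the other TdTomato+ libraries of that tissue. The part of these cells in the members' levels was not tested.

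In 6W muscle, TdTomato+ replicate 4 was high for Prox1 (22.7 CPM). TdTomato- replicate 5 was high there for Prox1 (13.7 CPM), Mmrn1 (127.0 CPM) and Fgl2 (53.5 CPM), and TdTomato- replicate 2 for Pdpn (7.17 CPM). In 6W heart, TdTomato+ replicate 2 was high for Pdpn (2.04 CPM) and TdTomato- replicate 5 for Reln (26.9 CPM). In P1 lung, replicate 1 was high for Fgl2 in TdTomato+ cells (191.5 CPM) and for Lyve1 in TdTomato- cells (2554 CPM).

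The TdTomato+ effect differed between combinations of age and tissue for every member, by edgeR's test of equal effects (adjusted p = 0.0141 for Prox1, 0.000222 for Lyve1, 2.55e-05 for Mmrn1, 0.000986 for Pdpn, 0.00233 for Reln and 9.21e-06 for Fgl2). In heart the effect at 6W minus that at P1 was 4.46 for Lyve1, 4.99 for Mmrn1, 4.52 for Pdpn and 3.39 for Fgl2 (log2). In muscle the effect at 6W minus that at P6 was 2.92 for Mmrn1, 3.71 for Reln and 2.35 for Fgl2.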

How the results depend on the processing

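Of the single-gene log2 fold changes under alternatives other than leaving out a replicate (given as ranges below), 650 kept direction and side of the threshold, 19 passed it newly, 19 no longer passed it and 12 turned sign; the cause was not tested. The 60 group means moved by less than 1 SD under total-count scaling. In P1 heart 3 members were called in that tissue's libraries alone with no replicate block (pairing), and in P1 lung alone with the block 1 was. In P6 muscle 2 were called with no block, 1 with P1 heart pair 1 included, and 2 to 4 without any one pair. For the muscle difference of effects, 0 were called with no block, 0 with pair 1 included, 1 with the RNA integrity number, and 1 to 3 without any one pair. In TdTomato- heart (6W over P1), 4 were called with P1 replicate 1 included, 1 with those 2 groups alone and 1 to 4 without any one library. For 6W heart over muscle, DESeq2 called 1 in each fraction, the 2 TdTomato+ groups alone gave 1, and single libraries left out gave 0 to 2 in TdTomato+ and 0 to 1 in TdTomato- cells.

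With the RNA integrity number as covariate the fraction effect became -0.045 for Reln and -0.11 for Fgl2 in P1 lung, -0.18 for Fgl2 in 6W heart, and -0.94 for Mmrn1, -0.26 for Reln and -0.51 for Fgl2 in 6W muscle. In 6W heart Prox1 was at 0.15 with no block and 0.16 alone with no block, and Lyve1 at 0.22 without pairs 5 and 6. With the second run only, TdTomato- 6W heart over muscle was 0.42 for Mmrn1, 0.42 for Reln and 0.24 for Fgl2. Leaving out 1 replicate in turn, the effect in 6W heart ran from -0.13 to 0.42 for Fgl2, in 6W muscle from -0.71 to 0.082 for Lyve1, -0.39 to 0.46 for Mmrn1 and -0.51 to 0.26 for Pdpn, and in P1 lung from -0.45 to 0.020 for Mmrn1. Prox1 ran from -0.47 to 1.13 in TdTomato+ heart and -0.054 to 0.66 in TdTomato+ muscle (6W over the younger age), and Fgl2 from -0.73 to 0.087 in TdTomato- heart. TdTomato- 6W heart over muscle ran from -0.55 to 0.28 for Fgl2, -0.72 to 0.39 for Mmrn1 and -1.03 to 0.044 for Reln.

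Counts of called genes over the whole table moved with the setting, in P1 heart from 2289 to between 297 and 3316, and in P6 muscle from 152 to between 7 and 443. With total-count scaling, P1 heart had 572 higher and 1600 lower calls in place of 1168 and 1121, with a shift of the median gene by -0.102. Pdpn and Reln in TdTomato+ P1 heart rest on 0 to 16 counts per library, so their fold changes depend on few reads.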

Other observations

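P1 heart pair 1, left out of all comparisons above because its TdTomato+ library failed quality control, also held fewer counts of every member in TdTomato+ than in TdTomato- cells. Its TdTomato+ library held 18840589 counts over 8631 genes and its TdTomato- library 23632561 counts over 14211 genes. Lyve1 had 9 counts in the TdTomato+ and 1241 in the TdTomato- library, Fgl2 had 4 in the TdTomato+ and 638 in the TdTomato- library, and Mmrn1 had 1 in the TdTomato+ and 274 in the TdTomato- library. Reln had 1 count in the TdTomato+ and 84 in the TdTomato- library. Prox1 had 0 counts in the TdTomato+ and 163 in the TdTomato- library, and Pdpn 0 in the TdTomato+ and 27 in the TdTomato- library. The low number of genes detected in the TdTomato+ library lowers what it can show of genes of few counts.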
